A study of Homo sapiens with 4 samples.

Results

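Peaks of SAF-A CLIP-seq were described in 4 genes of the 9p21 region of chromosome 9, MIR31HG, MTAP, CDKN2A and CDKN2B-AS1. A peak belonged to a gene when its midpoint lay inside the gene's GRCh37 interval, and it was counted by strand and by its place along the gene. The intervals held 373 of the 278959 peaks listed in all 4 libraries. MIR31HG held 255 of them, MTAP 95, CDKN2B-AS1 14 and CDKN2A 9. The genes were chosen by the peak numbers of these same lists in pull-downs and inputs, so the number of pull-down peaks set against input peaks is given as a description with no test. MIR31HG and CDKN2B-AS1 are long noncoding RNAs, while MTAP and CDKN2A encode proteins, so the set is not one of noncoding RNAs alone.

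CLIP-seq maps the RNA bound by a protein: ultraviolet light crosslinks the protein to RNA in living cells, an antibody pulls the protein down, and the RNA that stays attached is sequenced. There were 2 pull-down samples, made with a SAF-A antibody, and 2 input samples. Input RNA came from the same cleared lysate without the antibody step and was cut from the same stretch of membrane as the pulled-down RNA, around the size of SAF-A. All 4 samples were HCT116 cells, an established human colorectal carcinoma line, with no treatment named in the labels, crosslinked at 254 nm with 4000 J/m2 and lysed, with DNase and a little RNase A added. The labels name no separate cultures, so the spread between replicates may be technical.

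The lists held 96061 and 111256 peaks in pull-down replicates 1 and 2, and 29386 and 42256 in input replicates 1 and 2. Counts are therefore also given per 10000 listed peaks of the same library. Read depth and RNA levels are unknown, since the files list peaks and not reads.

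SAF-A, also called hnRNP U, is an abundant nuclear protein that binds RNA through its C-terminal RGG region and chromatin through its N-terminal part. It binds many unspliced nuclear transcripts and is known for holding XIST RNA on the inactive X chromosome. MIR31HG is the host transcript of the microRNA miR-31 and has been reported, in human fibroblasts, to act with Polycomb proteins on the CDKN2A promoter. MTAP encodes the enzyme that recycles methylthioadenosine into adenine and a methionine precursor. CDKN2A encodes the cell cycle inhibitors p16INK4a and p14ARF from overlapping reading frames. CDKN2B-AS1, also called ANRIL, is transcribed antisense to CDKN2B and in the direction opposite to CDKN2A, and has been reported to bind Polycomb proteins.

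On GRCh37, MIR31HG spans chr9:21454267-21559668 on the minus strand, 105.402 kb. MTAP spans chr9:21802635-21931198 on the plus strand, 128.564 kb. CDKN2A spans chr9:21967751-21994490 on the minus strand, 26.74 kb, and CDKN2B-AS1 spans chr9:21994790-22121096 on the plus strand, 126.307 kb. Other genes share these intervals by the RefSeq table of GRCh38.p14. Within MIR31HG lie IFNE, which encodes an interferon, MIR31, the pseudogene IFNWP19 and a snoRNA, and CDKN2B lies within CDKN2B-AS1. Exons, introns and untranslated regions were not assigned, because no GRCh37 annotation was used here.

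In both MIR31HG and MTAP the first 10 kb after the start held more pull-down peaks than any other 10 kb of the gene, so the sequences of both starts are shown as RefSeq gives them on GRCh38.p14, 250 bases before the start to 50 after it, 5′ to 3′. Capitals mark GGGCGG, the core of the GC box, or its reverse complement CCGCCC. The first is chr9:21559749-21560048 on the minus strand, and the second is chr9:21802386-21802685 on the plus strand.
MIR31HG: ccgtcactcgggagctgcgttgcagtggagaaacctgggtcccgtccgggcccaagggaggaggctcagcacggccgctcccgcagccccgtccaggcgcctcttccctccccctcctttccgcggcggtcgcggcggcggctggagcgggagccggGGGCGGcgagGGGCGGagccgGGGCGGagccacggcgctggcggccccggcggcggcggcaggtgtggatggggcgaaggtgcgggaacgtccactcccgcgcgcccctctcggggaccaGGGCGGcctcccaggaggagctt
MTAP: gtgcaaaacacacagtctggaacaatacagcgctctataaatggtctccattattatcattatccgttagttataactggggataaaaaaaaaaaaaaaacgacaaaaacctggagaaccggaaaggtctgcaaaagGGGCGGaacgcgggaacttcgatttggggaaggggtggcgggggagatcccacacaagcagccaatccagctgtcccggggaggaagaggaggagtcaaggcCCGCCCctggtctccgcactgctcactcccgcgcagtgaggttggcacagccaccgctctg
The MIR31HG start held 77.7% G and C and 39 CpG dinucleotides, with GGGCGG 4 times on its own strand and 0 times on the other. The MTAP start held 53.0% G and C and 15 CpG dinucleotides, with GGGCGG 1 time on each strand. Over 35116 RefSeq promoters of the same length, 45.0% held GGGCGG on either strand, and the medians were 58.7% G and C and 14 CpG dinucleotides. The sequence TATAAA, searched on both strands, was found at the MTAP start and not at the MIR31HG start, and in 11.5% of all promoters. A motif match is a description of these letters and not evidence of a binding site.

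The best known product of MIR31HG is miR-31. Its mature 5p form from RefSeq (GRCh38.p14, chr9:21512158-21512178, minus strand) is shown with its seed, bases 2 to 8, in capitals.
hsa-miR-31-5p: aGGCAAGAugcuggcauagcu
No peak was placed against it, since the peaks are on another build.

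In MIR31HG the gene strand held 100 and 112 peaks in the pull-downs, against 13 and 27 in the inputs. Per 10000 listed peaks this was 10.4 and 10.1 in the pull-downs, against 4.42 and 6.39 in the inputs. Both pull-downs lay above both inputs. The means were 10.2 ± 0.24 in the pull-downs, against 5.41 ± 1.39 in the inputs (SD, n = 2 each), a log2 ratio of 0.92. Once every list was cut to the same length by score, the groups overlapped, with a log2 ratio of 0.00. In the better-scoring 50% of each list the log2 ratio was 0.83, with both pull-downs above both inputs.

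For comparison, the genome was divided into 100 kb windows, each on 1 strand. Among the 188 windows with a mean of at least 10 peaks, both pull-downs lay above both inputs in 52.1% and below both in 37.2%. The direction seen at MIR31HG was thus the commoner one, and its log2 ratio lay above that of 55.6% of the 187 windows for which a ratio could be formed, whose median was 0.60. The count of peaks of either kind was high. Per 100 kb, 5 of 47772 windows with any peak were denser than MIR31HG in the pull-downs, and 19 were denser in the inputs. Since the genes were chosen with these peak numbers in view, and a gene was set against fixed windows, this rank is a description alone. The window that spans the start of MIR31HG and the stretch upstream of it was not left out. It is counted among the denser windows in both kinds of library.

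On the strand opposite to MIR31HG there was 1 peak in each pull-down, against 0 and 1 in the inputs. The share on the gene strand was 99.0% and 99.1% in the pull-downs, against 100% and 96.4% in the inputs. Whole lists divided about evenly between strands, with 49.7% to 50.5% on the plus strand.

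MTAP, on the other strand of the same region, had 32 and 50 gene-strand peaks in the pull-downs, against 4 and 7 in the inputs. Per 10000 listed peaks the means were 3.91 ± 0.82 in the pull-downs, against 1.51 ± 0.21 in the inputs (SD, n = 2 each), a log2 ratio of 1.37, which became −2.32 in lists of equal length, where 0 to 4 peaks were left. Both pull-downs again lay above both inputs, and the log2 ratio was above that of 67.9% of the windows. The opposite strand had 1 peak in each pull-down and 0 in each input. Per 100 kb of gene, MTAP was the less dense of the pair, with 3.04 ± 0.64 peaks per 10000 in the pull-downs, against 9.71 ± 0.23 at MIR31HG (SD, n = 2).

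CDKN2A had 2 and 3 gene-strand peaks in the pull-downs, against 2 and 2 in the inputs, and 0 peaks on the opposite strand in all 4 lists. CDKN2B-AS1 had 1 and 3 gene-strand peaks in the pull-downs, against 2 and 2 in the inputs. Its opposite strand, which is the strand of CDKN2A and CDKN2B, had 1 and 2 peaks in the pull-downs, against 2 and 1 in the inputs. Per 10000 listed peaks the pull-downs were below the inputs at both genes, with 0.239 ± 0.043 against 0.577 ± 0.147 for CDKN2A and 0.187 ± 0.117 against 0.577 ± 0.147 for CDKN2B-AS1 (SD, n = 2 each). Over windows with at least 1 peak, both pull-downs lay below both inputs in 22.0% and above both in 34.1%.

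These counts are too few to give a direction. The ratio of pooled counts, pull-down over input, was 0.432 for CDKN2A with a 95% interval of 0.093 to 2.18, and 0.346 for CDKN2B-AS1 with an interval of 0.064 to 1.86. Intervals here and below cover counting error only, as neighbouring peaks are not independent. Of the 4 genes, MIR31HG and MTAP passed the minimum mean of 10 peaks, with means of 63 and 23.25 over the libraries, and CDKN2A and CDKN2B-AS1, with 2.25 and 2, did not.

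**Figure D1:**
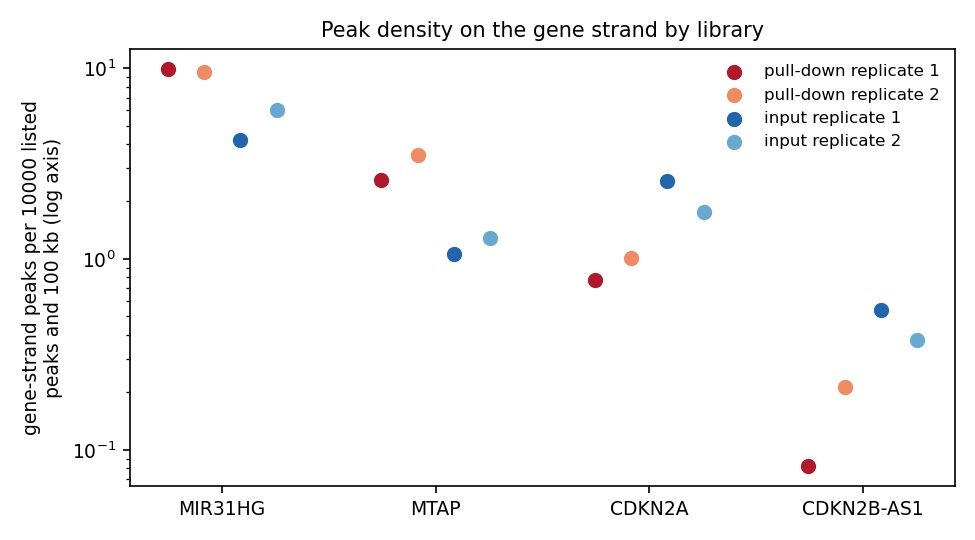
Gene-strand peaks per 10000 listed peaks and 100 kb of gene (log axis) for the 4 genes. Each point is 1 library, pull-downs left of inputs. Both pull-downs lie above both inputs at MIR31HG and MTAP and below them at CDKN2A and CDKN2B-AS1, where each point rests on 1 to 3 peaks.

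Peaks were not spread along MIR31HG but gathered toward its start. In successive 10 kb bins from the start, pull-down replicate 1 had 34, 26, 18, 10, 9 and 2 peaks, and pull-down replicate 2 had 36, 25, 19, 14, 14 and 4. The inputs had fewer peaks in the same stretch, with 3, 4, 2, 3, 1 and 0 in replicate 1 and 9, 7, 5, 5, 1 and 0 in replicate 2. Over these bins, in neither pull-down did a bin hold more peaks than the one before it. The bins with the most pull-down peaks were chr9:21549669-21559668 and chr9:21539669-21549668.

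Beyond 60 kb from the start, 1 peak was left in pull-down replicate 1, at 72.3 kb, and 0 in the other lists. The median distance from the start was 14.5 and 15.5 kb in the pull-downs, against 16.7 and 15.8 kb in the inputs. The first 50% of the gene held 98.0% and 97.3% of its gene-strand peaks in the pull-downs, against 100% of them in each input. Pull-down and input peaks therefore lay in nearly the same part of the gene. Within that part, the longest stretch with no peak midpoint in any list ran from 17.6 to 22.9 kb after the start, 5.31 kb long.

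The minus-strand peaks did not end at the start of MIR31HG. The start used for distances is the end of the GRCh37 interval, chr9:21559668. It was not matched to the RefSeq start whose sequence is shown above, so peaks next to it may lie on either side. In the 40 kb upstream of it (chr9:21559669-21599668, an interval chosen after its peaks had been seen), there were 35 and 51 minus-strand peaks in the pull-downs, against 1 and 3 in the inputs. The plus strand had 0 peaks there in all 4 lists. Per 10000 listed peaks the means were 4.11 ± 0.67 in the pull-downs, against 0.53 ± 0.26 in the inputs (SD, n = 2 each), a log2 ratio of 2.97.

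Upstream of the start, pull-down peaks were most numerous 20 to 30 kb away from it. In 10 kb bins moving away from the start there were 9, 9, 13 and 4 peaks in pull-down replicate 1 and 13, 12, 22 and 4 in pull-down replicate 2. The farthest lay 32.0 and 31.7 kb from the start in the pull-downs, and the next 10 kb held 0 peaks in all 4 lists. Taken over the whole space between MIR31HG and MTAP, 242.966 kb, the minus strand had 36 and 52 peaks in the pull-downs, against 1 and 4 in the inputs, so nearly all were in the 40 kb next to MIR31HG. The plus strand of the same space had 2 and 4 peaks in the pull-downs, against 2 and 3 in the inputs.

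RefSeq on GRCh38.p14 names the pseudogenes H3P30, KHSRPP1 and RN7SL151P and the long noncoding RNA LOC107987026 between MIR31HG and MTAP. Which of them, if any, the upstream peaks overlap was not analysed here. Whether the upstream stretch belongs to MIR31HG transcripts was not tested.

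**Figure D2:**
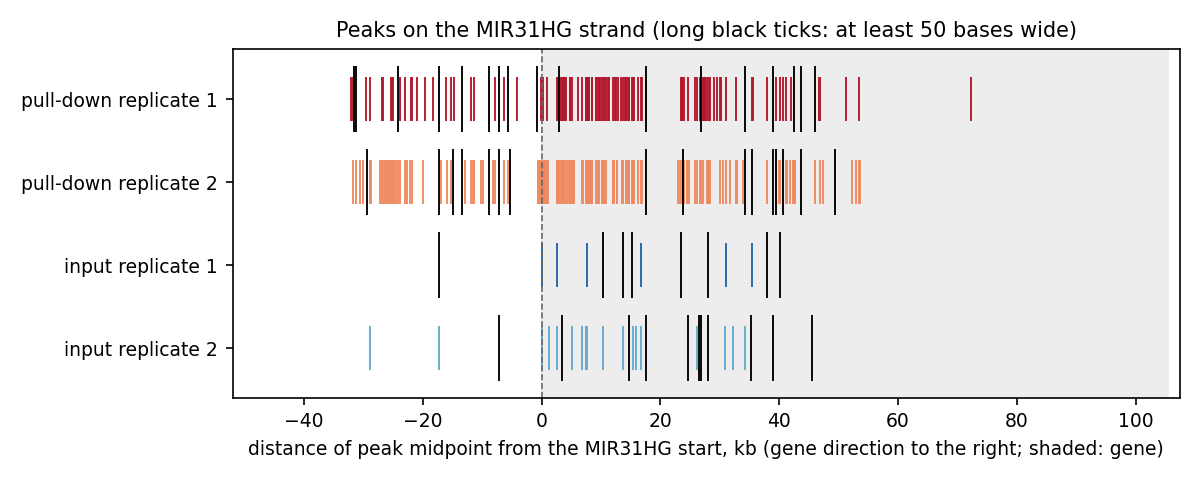
Gene-strand peaks by distance of their midpoint from the MIR31HG start, in kb, 1 row per library with pull-downs above inputs and the gene shaded. Long black ticks are peaks at least 50 bases wide. Pull-down peaks reach from 32.0 kb before the start to about the middle of the gene, while the inputs have 1 and 3 peaks before the start.

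MTAP peaks also lay in the part of the gene nearer to its start, but in clusters with no steady decline. In successive 10 kb bins pull-down replicate 1 had 13, 1, 6, 2, 0, 5 and 5 peaks, and pull-down replicate 2 had 16, 5, 7, 4, 3, 9 and 4. The 4 and 7 input peaks were scattered over the same 70 kb. The bins with the most pull-down peaks were chr9:21802635-21812634 and chr9:21852635-21862634, about 50 kb apart.

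The longest stretch without a peak in any list in the first 50% of MTAP ran from 11.2 to 22.2 kb after the start. That part of the gene held 96.9% and 94.0% of the gene-strand peaks in the pull-downs, against 100% in each input. Past 70 kb there were 2 peaks, both in pull-down replicate 2, the farther at 126.0 kb. Upstream of MTAP the plus strand had 1 peak in every list within 10 kb, so no upstream stretch like that of MIR31HG was seen.

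**Figure D3:**
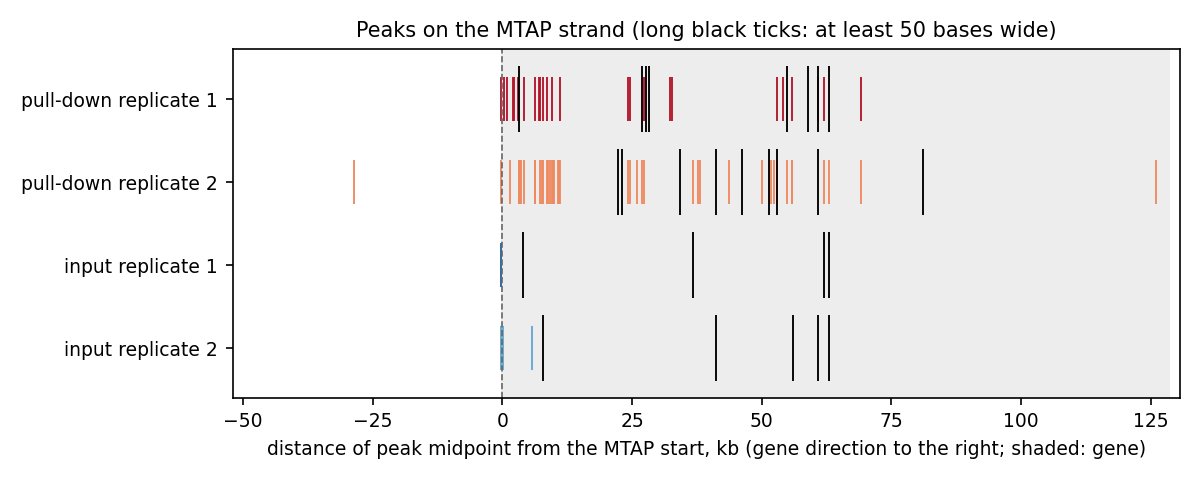
Gene-strand peaks by distance of their midpoint from the MTAP start, in kb, 1 row per library with pull-downs above inputs and the gene shaded. Long black ticks are peaks at least 50 bases wide. Pull-down peaks gather in the first 10 kb, from 20 to 30 kb and again from 50 to 70 kb, and 9 of the 11 input peaks are wide.

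Peak width differed between pull-downs and inputs at both genes. Of the gene-strand peaks in MIR31HG, 8 of 100 and 9 of 112 were at least 50 bases wide in the pull-downs, against 7 of 13 and 10 of 27 in the inputs. These shares were 8.00% and 8.04% in the pull-downs, against 53.8% and 37.0% in the inputs. Over the whole lists the shares were 16.2% and 19.2% in the pull-downs, against 22.1% and 26.6% in the inputs. MIR31HG thus had a smaller share of wide peaks than the whole list in both pull-downs and a larger share in both inputs. The median width went otherwise in the pull-downs, at 18 and 17 bases in MIR31HG against 15 in each whole list. In the inputs it was 52 and 44 bases, against 14 and 16. The smaller share in the pull-downs therefore concerns the widest peaks and not the typical one. The difference, pull-down minus input, was −37.4 percentage points, and −30.8 after each list's own share had been taken away. Its size depended on the lists and the width chosen: it was −18.6 points in lists of equal length, −59.7 with wide peaks set at 30 bases and −10.9 at 100 bases.

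In MTAP 8 of 32 and 9 of 50 peaks were wide in the pull-downs, against 4 of 4 and 5 of 7 in the inputs. The shares averaged 21.5% ± 4.9 in the pull-downs, against 85.7% ± 20.2 in the inputs (SD, n = 2 each). The difference was −64.2 points, and −48.9 and −15.5 with wide peaks set at 30 and 100 bases. At 50 bases the groups did not overlap at either gene, and they did not overlap over the whole lists either. How often the same holds at other genes or windows was not counted, so it is not read as particular to these genes. With 2 samples against 2, the smallest p of the exact two-sided permutation test is 0.333, so none of the differences in width, strand or position can pass a threshold of 0.05, and all are given as descriptions of these 4 lists.

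**Figure D4:**
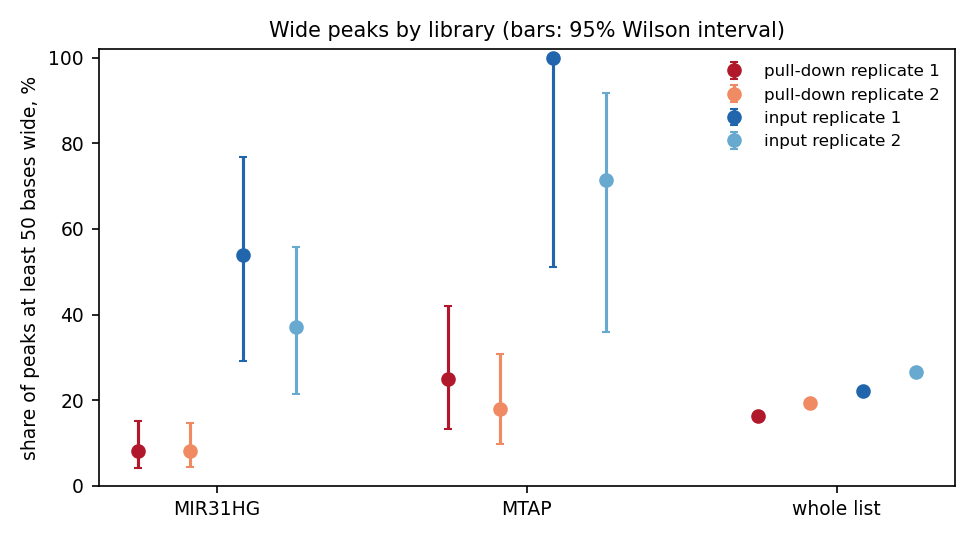
Share of gene-strand peaks at least 50 bases wide, in percent, for MIR31HG, MTAP and the whole list, 1 point per library with 95% Wilson intervals (counting error only, too small to see for whole lists). Pull-downs are left of inputs. The inputs lie at 37.0% or more in both genes, against 25.0% or less in the pull-downs.

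The wide peaks bear on the counts given above. Wide peaks in MIR31HG numbered about the same in each list, 8 and 9 in the pull-downs, against 7 and 10 in the inputs, although the pull-down lists were the longer ones. Set against wide peaks alone, MIR31HG was lower in the pull-downs, with a log2 ratio of −1.08. Set against narrow peaks alone it was higher, with 92 and 103 peaks in the pull-downs, against 6 and 17 in the inputs, and a log2 ratio of 1.50. The excess of pull-down peaks at MIR31HG was thus one of narrow peaks. As bases covered by peaks, 2213 and 2561 in the pull-downs against 797 and 1300 in the inputs, MIR31HG made up about the same share of its lists, with a log2 ratio of −0.041.

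The score that the authors deposited with each peak, whose meaning is not stated, was used only to rank peaks within a list. MIR31HG peaks had a median percentile of 31.6 and 41.3 in the pull-downs, against 36.8 and 38.4 in the inputs, so they sat below the middle of every list. In the best-scoring 25% of their list were 5 of 100 and 17 of 112 pull-down peaks, against 0 of 13 and 1 of 27 input peaks. When every list was cut to its 29386 best-scoring peaks, MIR31HG had 10 and 17 gene-strand peaks in the pull-downs, against 13 and 14 in the inputs, and the groups overlapped with a log2 ratio of 0.00. That cut removed more of the pull-down lists, which were longer. With the better-scoring 50% of each list kept, MIR31HG had 6.45 and 6.83 peaks per 10000 in the pull-downs, against 2.72 and 4.73 in the inputs. The log2 ratio was then 0.83.

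MTAP was set against the same lists. In lists of equal length it had 0 and 1 peaks in the pull-downs, against 4 and 1 in the inputs. Among wide peaks alone its log2 ratio was −0.18, and among narrow ones 3.55, from 24 and 41 pull-down peaks against 0 and 2 input peaks. In bases covered MTAP was higher in the pull-downs, with a log2 ratio of 0.63, where MIR31HG was not. The upstream stretch of MIR31HG kept 2 and 5 peaks in the pull-downs, against 1 and 0 in the inputs, in lists of equal length. It stayed higher in the pull-downs among wide peaks, with 9 and 7 in the pull-downs, against 1 and 1 in the inputs, and in bases covered, with a log2 ratio of 2.42.

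**Figure D5:**
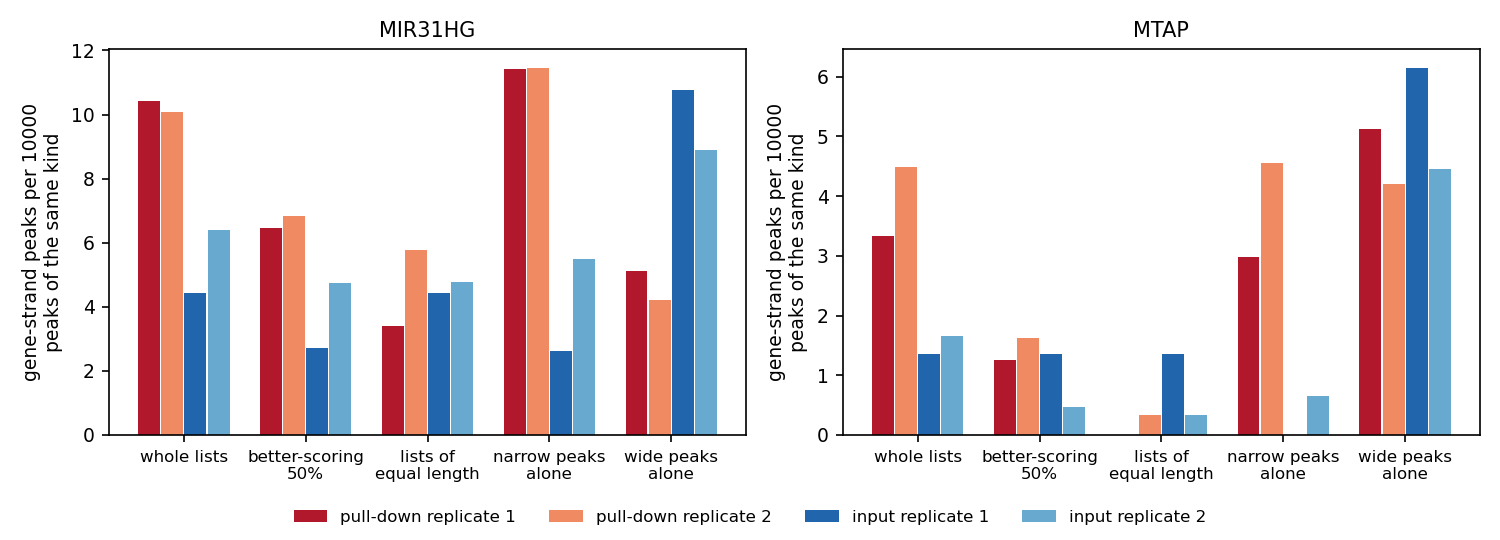
Gene-strand peaks per 10000 peaks of the same kind in MIR31HG and MTAP, counted in the whole lists, in the better-scoring 50%, in lists cut to 29386 peaks each, and among narrow (under 50 bases) and wide peaks alone. Each bar is 1 library, pull-downs left of inputs. Both pull-downs exceed both inputs in the whole lists and among narrow peaks, and at neither gene in lists of equal length. In the better-scoring 50% they do so at MIR31HG and not at MTAP.

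Peaks were then followed from list to list. A site was called shared when a peak of one pull-down overlapped a peak of the other by at least 1 base on the same strand, and input-free when no peak of either input overlapped it. MIR31HG had 64 shared pull-down sites on its strand, of which 41 were input-free, or 64.1% (Wilson interval 51.8% to 74.7%). Over the whole series 35889 of 62968 shared sites were input-free, or 57.0%, which lies inside that interval. All 9 sites shared by both inputs also held pull-down peaks.

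Of the peaks in MIR31HG, 65.0% and 58.0% were found again in the other pull-down, where the whole lists gave 65.6% and 56.7%. An input peak was overlapped by a pull-down peak in 11 of 13 and 21 of 27 cases. These were 84.6% and 77.8% of its input peaks, where the whole input lists gave 71.0% and 67.7%. In the other direction, 26.0% and 25.0% of the pull-down peaks had an input peak, where the whole pull-down lists gave 29.9% and 26.6%. These whole-list shares, and those of the pull-downs found again, lie inside the Wilson intervals of the MIR31HG shares. Between the inputs, 69.2% and 33.3% of MIR31HG peaks were found in the other replicate, where the whole lists gave 77.7% and 54.1%. The value of input replicate 2 has an interval of 18.6% to 52.2%, which lies below that of its list.

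The input-free sites of MIR31HG had a median width of 27 bases (range 6 to 122), where those of the whole series had a median of 16. They lay a median of 14.3 kb from the start. Neighbouring shared sites had a median spacing of 472 bases. The best-ranked of them was chr9:21550158-21550191, 9.49 kb from the start on the minus strand. Its score was at the 73.8 and 97.2 percentiles of the pull-down lists. Next came chr9:21548765-21548802, 10.9 kb from the start, at the 69.3 and 96.2 percentiles.

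The other sites of this ranking were chr9:21556743-21556810, chr9:21543425-21543454 and chr9:21516033-21516154, at 2.89, 16.2 and 43.6 kb from the start. The last was the widest input-free site of the gene, 122 bases, with its score at the 46.5 and 87.2 percentiles. Sequences at these sites are not shown, since no GRCh37 genome was used here.

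MTAP had 18 shared pull-down sites, of which 14 were input-free, or 77.8% (54.8% to 91.0%), and 1 held peaks in all 4 lists. The 57.0% of the whole series lies inside that interval. Of its pull-down peaks, 56.25% and 36.0% were found again in the other pull-down, where the whole lists gave 65.6% and 56.7%. An input peak overlapped 12.5% and 12.0% of them, where the whole pull-down lists gave 29.9% and 26.6%. The Wilson intervals of 36.0% (24.1% to 49.9%), 12.5% (4.97% to 28.1%) and 12.0% (5.62% to 23.8%) lie below the whole-list shares. Of its 4 and 7 input peaks, 3 and 4 had a pull-down peak. Its input-free sites were 16 to 74 bases wide, with a median of 38.5. The best-ranked were chr9:21855613-21855686, 53.0 kb from the start, and chr9:21805855-21805917, 3.25 kb from it, both on the plus strand. They were followed by chr9:21813819-21813844, chr9:21857420-21857489 and chr9:21806787-21806811. None of these reached the best-scoring 25% of either pull-down list, where the best site of MIR31HG stood in pull-down replicate 2.

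Upstream of MIR31HG there were 27 shared pull-down sites, of which 24 were input-free, where 57.0% of shared sites were over the whole series. The stretch was chosen after its peaks had been seen, so nothing is read from that count. CDKN2A and CDKN2B-AS1 had 0 input-free sites. Each had 1 shared pull-down site on its gene strand, which both inputs also listed. Their other gene-strand peaks were listed in 1 kind of library only.

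In CDKN2A a site at chr9:21971523-21971618 on the minus strand, 22.9 kb from the start and toward the far end of the gene, had a peak in every list. It stood high in each, at the 98.3 and 92.5 percentiles of the pull-down lists, and the 81.4 and 87.8 percentiles of the input lists. The remaining pull-down peaks, chr9:21975177-21975186 in replicate 1, and chr9:21973920-21973982 and chr9:21983922-21983944 in replicate 2, were each in 1 list. Next to the start, both inputs had a wide peak, chr9:21994205-21994365 and chr9:21994278-21994384, where neither pull-down had one.

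In CDKN2B-AS1 the plus-strand site at chr9:22026034-22026081, 31.3 kb from the start, had a peak in all 4 lists. It stood at the 86.6 and 58.1 percentiles of the pull-down lists, and the 85.7 and 88.5 percentiles of the input lists. A site at chr9:22012580-22012609 was listed by both inputs alone, and peaks at chr9:21997456-21997579 and chr9:22032147-22032159 by pull-down replicate 2 alone. On the minus strand, a site of 9 bases at chr9:22098443-22098451 had a peak in all 4 lists, at the 82.3 and 81.1 percentiles of the pull-down lists and the 5.42 and 32.2 percentiles of the input lists. ANRIL thus had 1 gene-strand site that every library listed and none that was listed in both pull-downs alone.

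Apart from the space between MIR31HG and MTAP, which held 104 peaks in all, the surroundings of the 4 genes held few peaks. In the 100 kb past the far end of MIR31HG, the minus strand had 0 peaks in all 4 lists and the plus strand had 3 and 3 in the pull-downs, against 0 and 0 in the inputs. In the 100 kb beyond CDKN2B-AS1, the minus strand had 3 and 4 peaks in the pull-downs, against 1 and 1 in the inputs, and the plus strand 0 and 0, against 0 and 1. Between MTAP and CDKN2A, each strand had 1 peak in each pull-down, and each input had 0 on the plus and 1 on the minus strand. The dense minus-strand stretch therefore ended about 32 kb above the start of MIR31HG and within the gene itself.

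Elsewhere in the genome, the windows most like MIR31HG were found by the distance between log2 peaks per 10000 over the 4 libraries, among 16533 windows of 100 kb on 1 strand. The nearest was chr12:66200001-66300000 on the plus strand, at a distance of 0.51, with 129 and 141 peaks in the pull-downs, against 12 and 26 in the inputs. It was followed by chr10:114700001-114800000 on the plus strand, with 66 and 94 in the pull-downs, against 10 and 20 in the inputs, at 0.87. The third was chr11:5500001-5600000 on the minus strand, with 80 and 85 in the pull-downs, against 7 and 16 in the inputs, at 1.28. Nothing about shared function follows from this likeness, which rests on 4 libraries.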

How the data were processed

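The data were 4 lists of peaks deposited by the authors, 1 per sample, giving chromosome, start, end, score and strand. Per the submitters' processing notes, STAR and featureCounts were used with GRCh38 (versions not stated). How peaks were called is not given in the sources used here. Per the deposited lists, the score is at least 10 in every list and was used only within a list. Positions, as deposited by the authors, count from 0 and are printed 1-based. Of 278492 nuclear peaks, 0 ended past a GRCh37 chromosome end and 1214 past a GRCh38 end (lengths from general knowledge), so positions were taken as GRCh37. The members and lists were chosen with earlier results of these data known.

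Peaks were assigned by midpoint, per strand, in bins of 10 kb and windows of 100 kb. Wide peaks have at least 50 bases. Per gene, up to 5 input-free sites with the best mean score rank, the 2 fullest 10 kb bins and the 3 nearest windows were named. Shares carry 95% Wilson intervals and group values are means ± SD (n = 2). The stretch upstream of MIR31HG, the longest stretches without a peak and the width thresholds of 30 and 100 bases were added after the data were seen. The code was tested on simulated data. Python 3.11.15, pandas 2.3.3, NumPy 2.4.6, SciPy 1.17.1 and matplotlib 3.10.9 were used.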

Additional observations from a re-analysis of the deposited data

How the results depend on the processing

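Of 142 alternative values, 7 reversed and 20 moved. Log2 ratios moved when they changed by more than the spread between replicates, and counts when they changed by over 1.5 times. Differences in shares moved when they became 0. The other 115 stayed within these limits or, for shares, kept their direction. They include the replicate block, which leaves each difference as it is, and any overlap with the gene, which gave identical values. They also include the input-free sites of CDKN2A and CDKN2B-AS1, which numbered 0 in every setting. The wide share of MIR31HG kept its direction but changed in size. It differed by −18.6 points in lists of equal length and by −59.7 and −10.9 with wide set at 30 and 100 bases (MTAP −48.9 and −15.5). Log2 density ratios in lists of equal length were 0.00 for MIR31HG, −2.32 for MTAP and −0.42 for CDKN2A. In the better-scoring 50% MTAP gave 0.64, and MIR31HG stayed within the limit at 0.83. Narrow peaks alone gave 1.50 for MIR31HG and 3.55 for MTAP, and wide peaks alone −1.08, −0.18 and, upstream of MIR31HG, 1.90. By bases covered, MIR31HG gave −0.041, MTAP 0.63 and CDKN2A −1.90. Input-free sites in lists of equal length, the better-scoring 50% and wide peaks alone numbered 3, 12 and 2 in MIR31HG, 0, 2 and 0 in MTAP, and 1, 5 and 2 upstream, where an overlap of 50% left 12. The gene-strand share of MIR31HG, pull-down minus input, was −7.32 points in lists of equal length, −2.84 in the better-scoring 50% and −0.94 without input replicate 2 (range without each sample −0.94 to 2.63). That of MTAP was 0 in the better-scoring 50%. The share in the first 50% of MIR31HG differed by 0 in lists of equal length. The cause of these moves was not tested. Leaving out each sample in turn, log2 ratios ranged over 0.68 to 1.21 for MIR31HG, 1.14 to 1.57 for MTAP, −1.51 to −0.99 for CDKN2A, −2.47 to −1.10 for CDKN2B-AS1 and 2.53 to 3.60 upstream, and wide shares differed by −45.8 to −29.0 points in MIR31HG and −78.5 to −49.9 in MTAP. With the replicate number as a block, the differences in wide share are by construction the same, −37.4 and −64.2 points. The exact paired permutation p was 0.5, the smallest that 2 pairs can give. The numbers were not shown to pair the samples: over 168 windows the differences between replicates correlated at 0.121 between pull-downs and inputs. No value could be had for wide peaks in CDKN2B-AS1 or the better-scoring 50% upstream, where the inputs had 0 peaks, or for MTAP shares in lists of equal length. Low counts limit CDKN2A and CDKN2B-AS1.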
